A study of Gallus gallus with 205 samples.

Results

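NODAL, LEFTY2, CER1, PCSK6 and ACVR2B encode a signalling ligand, 2 of its secreted antagonists, a convertase that can activate it and a receptor for it. They are 5 of the 20581 genes that were complete in both count tables, and all 5 rows were found in each table by their symbols. Single cells were taken from White Leghorn chicken embryos, incubated for 20 to 27 h to stage 4 of Hamburger and Hamilton, and the genes were followed in 205 of them. At that stage the primitive streak, through which epiblast cells leave the surface to make mesoderm and endoderm, crosses the area pellucida. The streak cells form 4 title series, with 27 in cPS, 37 in cPS1, 59 in cPS2 and 52 in cPS3. The area pellucida around the dissected streak gave 30 cells in the series cSR, and 6 of these carry an epiblast label as well. The labels give no genotype or treatment, name no embryo and do not explain the series numbers, so each series stands for 1 sample, cells are not replicates, and no difference reported here has a replicate check or a p-value.

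Nodal is a ligand of the TGF-beta family that is made as a precursor and becomes active once proprotein convertases such as PCSK6 (also called PACE4) or furin have cut it. The active ligand binds type II receptors such as ACVR2B and ACVR2A together with the type I receptor ACVR1B and an EGF-CFC coreceptor, and the signal passes through SMAD2 and SMAD3 to genes of mesoderm and endoderm. LEFTY2 belongs to the Lefty proteins, which block the ligand and its coreceptor and whose genes are themselves switched on by Nodal signalling. CER1 encodes Cerberus, which binds Nodal outside the cell and is known in the chick from the hypoblast and the anterior streak.

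Levels are given as counts in 1000000 (CPM) of each cell's total, and the counts of a gene added up over a series and divided by the summed totals give its pooled CPM. A cell was taken to detect a gene at 10 CPM or more. Totals per cell had a median of 2459318 counts and ranged from 201170 to 4552697, with medians of 2262998 to 2663855 in the streak series and 2478990 in cSR. All intervals are at 95% and cover counting error only: for pooled CPM they are exact Poisson intervals over counts made without molecular identifiers, so they are far narrower than the spread between cells, and for shares they are exact binomial intervals over cells. No transcript lengths were used, so neither levels nor shares are compared between genes. All cells of cPS1, cPS2 and cPS3 lie in library blocks (runs of library identifiers) that hold no cSR and no cPS cell. For every gene, a difference between these series and cSR or cPS therefore cannot be told apart from a difference between blocks. The pooled streak cells lie mostly in those blocks, so the same limit bears on them. The labelled tissue was checked against its markers: T (brachyury), the mesoderm factor of the streak, was detected in 98.9% of streak cells and in 96.7% of cSR cells, and EOMES, a T-box factor of the streak, in 64% and 33.3%. CHRD and FOXA2, genes of the node and anterior streak, were detected in 25.1% and 12.6% of streak cells and in 0 of 30 cSR cells each. Of the other node markers, GSC, LHX1 and SHH had a higher share in the streak, and GNOT1 was alike at 16.6% and 16.7%. The streak markers TBX6 and SNAI2 were in 85.7% and 86.3% of streak cells and in 70% and 73.3% of cSR cells. MSGN1 and WNT8A, also streak markers, were in 32.6% and 60.6% of streak cells but in 36.7% and 63.3% of cSR cells. The summed level of 6 streak markers had a median of 2914 CPM in streak cells (range 37.6 to 10698) and 1339 CPM in cSR cells (23.3 to 11686), so it did not separate the tissues.

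NODAL, the ligand, reached 10 CPM in few cells, and all of them came from the streak. It was detected in 3 of 27 cPS, 3 of 37 cPS1, 7 of 59 cPS2, 2 of 52 cPS3 and 0 of 30 cSR cells. In each of the 5 series the lowest and the median cell stood at 0, and the highest cell stood at 28.8 CPM in cPS, 53.8 CPM in cPS1, 96.2 CPM in cPS2, 77.4 CPM in cPS3 and 1.17 CPM in cSR. Over the streak the 15 cells make 8.57% (4.88 to 13.7), another 10 cells held NODAL reads under 10 CPM, and 150 held none. The count of 0 in cSR allows a share of up to 10% by the limit of 3 cells in 30, and its binomial interval reaches 11.6%, so with this number of cells the share in cSR could be as high as that of the streak.

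The pooled level of NODAL stood in cPS at 2.11 CPM (1.78 to 2.47), at 3.97 CPM in cPS1 (3.57 to 4.41), 6.07 CPM in cPS2 (5.69 to 6.46) and 2.79 CPM in cPS3 (2.496 to 3.11), while cSR had 0.0429 CPM (0.00884 to 0.125), where 3 counts in 2 cells make up the whole sum. The ratio of cPS to cSR was 49.2, with a counting interval of 16.5 to 241. With 1 CPM added to both sides the log2 ratio to cSR was 1.58 for cPS, 2.25 for cPS1, 2.76 for cPS2 and 1.86 for cPS3. These 4 ratios use the same cSR cells. Single cells weigh heavily in them, since the highest cell gave 39.1% of the NODAL counts of cPS, 50% in cPS1, 45.2% in cPS2 and 65.96% in cPS3. The 2 library blocks that hold both cPS and cSR cells gave ratios on the same side, with 2.23 against 0.0651 CPM in block 1 and 1.94 against 0.0255 CPM in block 2. In block 2, however, all NODAL counts of cPS came from 1 cell. The cSR sums were 2 counts in block 1 and 1 count in block 2.

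LEFTY2, the antagonist that is also a Nodal target, was detected in 7 of 27 cPS, 13 of 37 cPS1, 13 of 59 cPS2, 13 of 52 cPS3 and 2 of 30 cSR cells. Over the streak this is 26.3% (19.9 to 33.5), against 6.67% in cSR (0.818 to 22.1). Levels were spread widely among the detecting cells: the lowest of the 46 streak cells had 13.1 CPM, the median 153.8 CPM and the highest 871 CPM, while 93 streak cells stood at 0. In 25 streak cells LEFTY2 reached 100 CPM or more, among them 4 in cPS, 4 in cPS1, 7 in cPS2 and 10 in cPS3. The pooled level was 78.3 CPM in cPS (76.3 to 80.4), 43.2 CPM in cPS1, 42.9 CPM in cPS2 and 70.5 CPM in cPS3, against 23.1 CPM in cSR (22.0 to 24.3), which gives log2 ratios of 1.72, 0.87, 0.86 and 1.57.

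The cSR value of LEFTY2 rested on 1 cell. The cell cSR_03 held 708 CPM and gave 91.3% of the counts of the series, cSR_05 held 50.4 CPM, and every other cSR cell was under 10 CPM. Both of these cells carry the epiblast label, so LEFTY2 was detected in 2 of 6 cSR cells with that label and in 0 of 24 without it. Without the labelled cells cSR stood at 0.582 CPM and the log2 ratio of cPS to cSR was 5.65, and without the highest cell of each series it was 4.07. Within library blocks cPS stood at 82.8 against 0.553 CPM in cSR for block 1, and at 72.2 against 40.8 CPM for block 2, where both labelled cells with LEFTY2 lie. The direction was the same in all of these, but the size of the ratio depends on those cells.

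CER1, the other antagonist, was detected in 13 of 27 cPS, 13 of 37 cPS1, 17 of 59 cPS2, 16 of 52 cPS3 and 6 of 30 cSR cells, which is 33.7% of streak cells (26.8 to 41.2) and 20.0% of cSR cells (7.71 to 38.6). The median cell had 1.36 CPM in cPS, 1.95 CPM in cPS1, 0.419 CPM in cPS2, 0.46 CPM in cPS3 and 0.549 CPM in cSR. The highest cell reached 880.1 CPM in cPS, 1483 CPM in cPS1, 851 CPM in cPS2, 639 CPM in cPS3 and 275 CPM in cSR. That cell gave 33.1% of the CER1 counts of cPS, 56.3% in cPS1, 20.5% in cPS2, 25.6% in cPS3 and 35.2% in cSR. The pooled level was 104.7, 97.8, 73.3 and 52.7 CPM in cPS, cPS1, cPS2 and cPS3, with 29.8 CPM in cSR, and the log2 ratios to cSR were 1.78, 1.68, 1.27 and 0.80. The excess of cPS lay in library block 1, where CER1 stood at 166 against 44.1 CPM in cSR (log2 ratio 1.89). In block 2 it stood at 21.6 CPM in cPS cells and 18.6 CPM in cSR cells (0.21).

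PCSK6, the convertase, was detected in 14 of 27 cPS, 19 of 37 cPS1, 24 of 59 cPS2, 19 of 52 cPS3 and 7 of 30 cSR cells. The streak share was 43.4% (35.97 to 51.1) and the cSR share 23.3% (9.93 to 42.3). The median cell had 10.1 CPM in cPS, 10.8 CPM in cPS1, 2.11 CPM in cPS2, 1.53 CPM in cPS3 and 0.495 CPM in cSR, and at least 1 cell of each series had 0. The highest cell had 328 CPM in cPS, 254 CPM in cPS1, 957 CPM in cPS2, 438 CPM in cPS3 and 203 CPM in cSR. Pooled levels were 56.04, 48.6, 57.9 and 34.04 CPM in the streak series in their order, against 12.7 CPM in cSR, with log2 ratios of 2.06, 1.86, 2.11 and 1.36. Both shared library blocks gave a ratio past 2-fold, with 59.6 against 18.8 CPM in block 1 and 51.2 against 7.93 CPM in block 2.

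ACVR2B, the type II receptor, had reads in every cell of both tissues. It was detected in 24 of 27 cPS cells, in all 37 cPS1, 59 cPS2 and 52 cPS3 cells, and in 29 of 30 cSR cells. The lowest, median and highest cell had 0.708, 359 and 1961 CPM in cPS, 59.3, 798 and 1879.6 CPM in cPS1, 131.7, 893 and 2629 CPM in cPS2, 36.2, 659.6 and 2136 CPM in cPS3, and 9.38, 475.3 and 1479.8 CPM in cSR. The ranges of all 5 series overlap over most of their length. The pooled level was 556 CPM in the cPS cells and 589.5 CPM in the cSR cells, a log2 ratio of -0.09 that became 0.05 with TMM factors, -0.40 in block 1 and 0.25 in block 2. The other streak series stood at 898, 1012 and 774 CPM in cPS1, cPS2 and cPS3, with log2 ratios to cSR of 0.61, 0.78 and 0.39, so none of the 4 ratios passed 2-fold. These series come from library blocks 3 and 4, which hold no cSR and no cPS cell, so for these series a difference from cPS or cSR and a difference between blocks cannot be told apart. The same holds for the other genes.

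**Figure D1:**
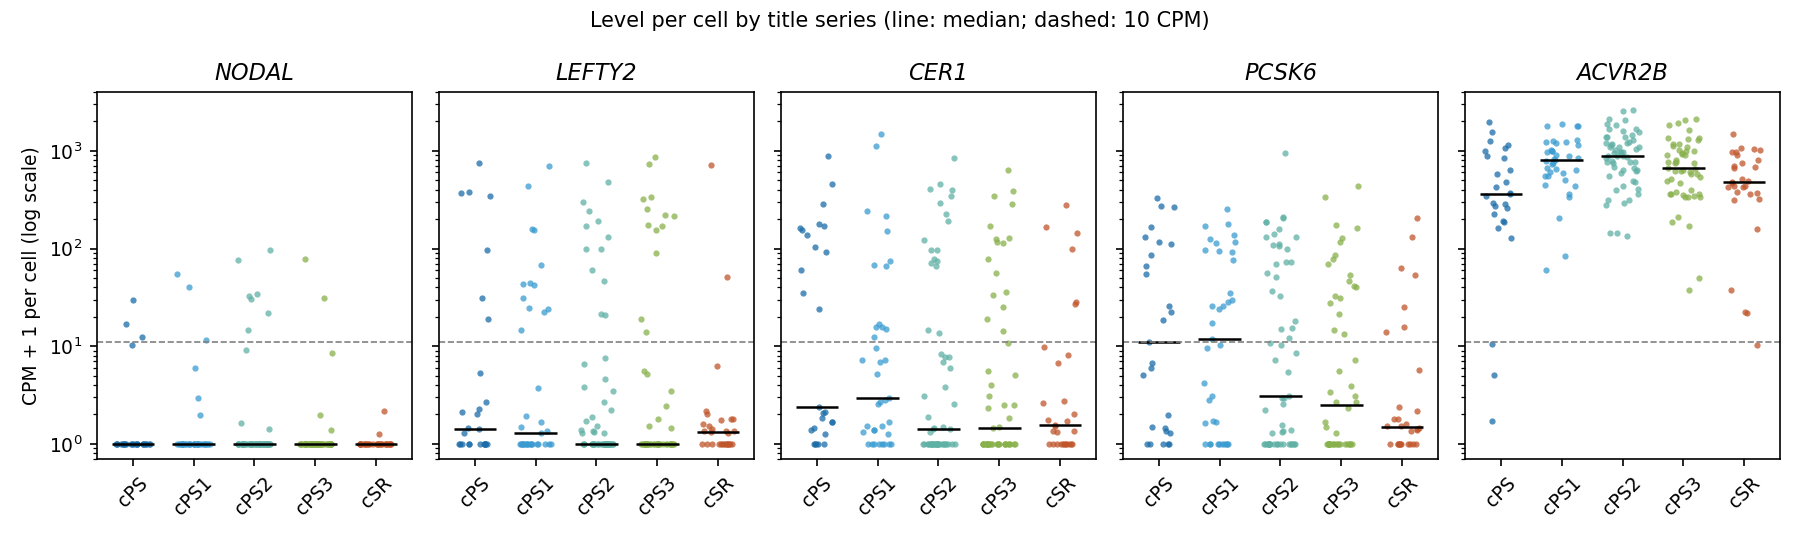
Level of each gene in every cell, as CPM + 1 on a log axis, with 1 point a cell, the 4 streak series left of cSR, a line at the median and a dashed line at the detection limit of 10 CPM. NODAL is at 0 in most cells of all 5 series, LEFTY2, CER1 and PCSK6 range from 0 to over 100 CPM within each series, and ACVR2B is present in every cell.

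Read as shares of cells, the intervals of the 5 series overlap for each of the 5 genes, also between neighbours when the series are ordered by share. Overlap is no test and does not show that the shares are alike: for LEFTY2 the interval of cPS1 (20.2 to 52.5) only just meets that of cSR (0.818 to 22.1). Of the genes compared between cPS and cSR at 5 CPM or more in at least one of them, 11.7% were at least 2-fold higher in cPS and 14% at least 2-fold lower. Against that background LEFTY2, CER1 and PCSK6 were past 2-fold higher in cPS and ACVR2B was not, and NODAL lay below 5 CPM in both and is outside the count. With cPS1 in place of cPS, 14.1% of genes were 2-fold higher, CER1 and PCSK6 among them, and 10% lower. For CER1, 1 cell gave 56.3% of the counts of cPS1, so that call leans on it. With cPS2, 10.7% were higher, NODAL, CER1 and PCSK6 among them, and 10.2% lower. With cPS3, 10% were higher, LEFTY2 and PCSK6 among them, and 10.8% lower. With all streak cells taken as 1 group, 9.54% of genes were 2-fold higher and 7.53% lower, and LEFTY2 (log2 ratio 1.25), CER1 (1.36) and PCSK6 (1.88) were among the higher. PCSK6 was the only one of the 5 measured at 5 CPM or more and past 2-fold in all 4 comparisons, which share the cSR cells. Of these comparisons only that of cPS lies within shared library blocks. Markers of other tissues differed between the same cells. Of 6 lateral mesoderm and vascular markers 4 were detected in cPS and 5 in cSR, HAND1 in no cell of either, and their summed level had a median of 15.5 CPM among cPS cells (0 to 697) and 352 CPM among cSR cells (2.41 to 2524). The 8 endoderm and hypoblast markers had a summed median of 219 CPM among cPS cells (1.57 to 9077) and 167 CPM among cSR cells (3.87 to 553), with SOX17 and TTR in no cell of either. The part of these markers in the ratios was not tested.

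The shares were also taken at equal depth. After each cell was thinned to 1000000 counts, which left out 1 cPS2, 2 cPS3 and 2 cSR cells, NODAL was detected in 11.1% of cPS, 8.11% of cPS1, 12.1% of cPS2, 4% of cPS3 and 0 of 28 cSR cells. LEFTY2 lay between 20.7% in cPS2 and 35.1% in cPS1, with 7.14% in cSR. CER1 lay between 29.3% in cPS2 and 48.1% in cPS, with 25% in cSR, and PCSK6 between 38% in cPS3 and 54.1% in cPS1, with 21.4% in cSR.

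**Figure D2:**
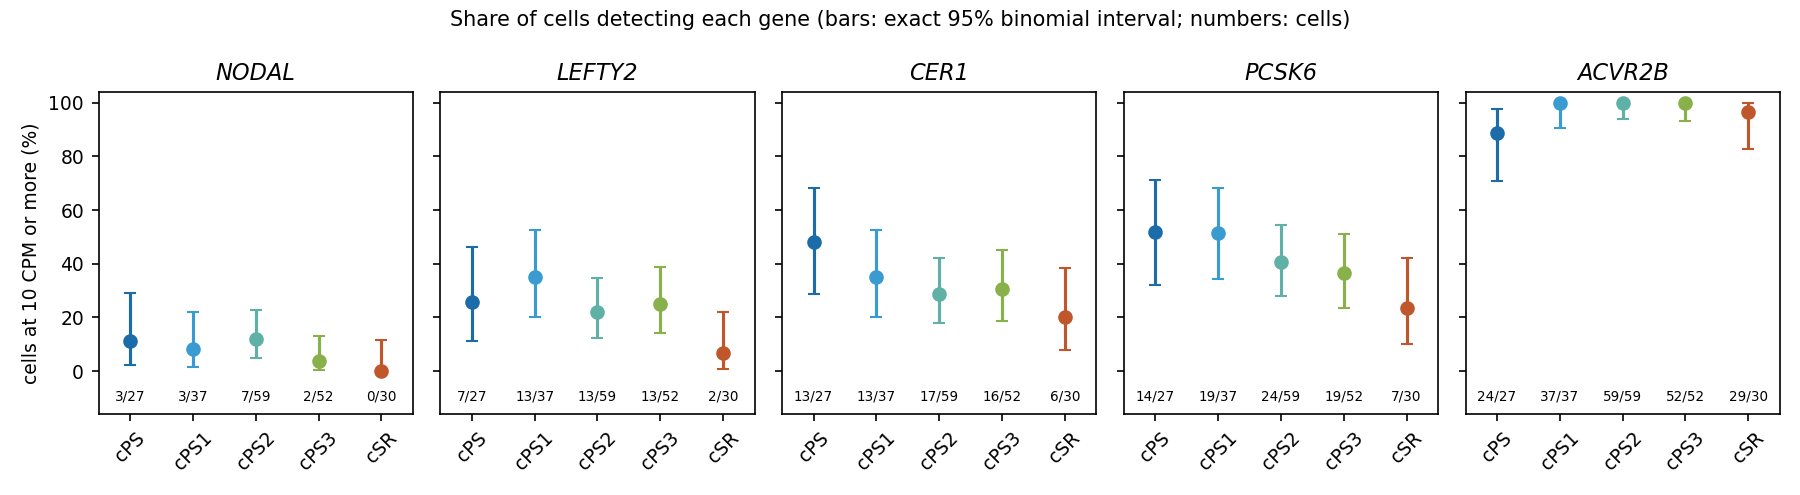
Share of cells at 10 CPM or more of each gene, in percent, by title series with cSR on the right; bars are exact 95% binomial intervals and the fractions give the cells. For NODAL, LEFTY2, CER1 and PCSK6 the lowest share is that of cSR, with 0, 2, 6 and 7 of 30 cells, and the intervals of the series overlap.

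Since the ligand, its antagonists and the convertase act outside the cell, it was asked which cells held several of the transcripts. The 15 streak cells with NODAL are described first. In 9 of them LEFTY2 was detected too (60%, 32.3 to 83.7), against 37 of 160 streak cells without NODAL (23.1%, 16.8 to 30.4). The share was higher beside NODAL in each series, with 2 of 3 against 5 of 24 cells in cPS, 2 of 3 against 11 of 34 in cPS1, 4 of 7 against 9 of 52 in cPS2 and 1 of 2 against 12 of 50 in cPS3. The difference is 36.9 percentage points. Over the 10270 other genes found in at least 5% of streak cells, 1.67% were detected at least 25 points more often in the cells with NODAL and 1.49% at least 25 points less often.

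The NODAL cells fall into those with high LEFTY2 and those with next to none. In the 9 cells LEFTY2 stood at 43.4 CPM at the lowest, 192 CPM at the median and 751 CPM at the highest, and in the other 6 it was 0 in 5 and 0.282 CPM in 1. The 2 cells with the highest NODAL, cPS2_89 at 96.2 CPM and cPS3_151 at 77.4 CPM, were both without LEFTY2 reads. The cell with most LEFTY2 among them, cPS2_74 at 751 CPM, had 33.2 CPM of NODAL and 343 CPM of CER1. Across the cells of a series, Pearson's r of log2(CPM + 1) between NODAL and LEFTY2 was 0.30 in cPS, 0.28 in cPS1, 0.39 in cPS2 and 0.17 in cPS3, over cells that share libraries and in which NODAL is mostly 0.

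For the other 5 pairs among these 4 genes, counted the same way, the difference stayed under 25 points. CER1 was detected in 8 of 15 cells with NODAL (53.3%) and 51 of 160 without it (31.9%), but in 0 of 2 such cells in cPS3. PCSK6 was detected in 8 of 15 cells with NODAL and 68 of 160 without it (42.5%), with 0 of 3 against 14 of 24 in cPS and 5 of 7 against 19 of 52 in cPS2. The binomial intervals of these shares overlap widely. ACVR2B was detected in all 15 NODAL cells, at 83.7 CPM at the lowest and 1205 CPM at the highest. The median over all streak cells, with and without NODAL, was 764 CPM. Between NODAL and ACVR2B, r was -0.20 in cPS, -0.23 in cPS1, -0.02 in cPS2 and -0.10 in cPS3.

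Of the 15 cells, 12 held at least one antagonist and 5 held both. All 4 of ligand, antagonists and convertase were found together in 3 cells, cPS2_74, cPS2_94 and cPS1_35, and NODAL stood with none of LEFTY2, CER1 and PCSK6 in 3 cells, cPS3_151, cPS2_65 and cPS_06. At least one antagonist was detected without NODAL in 74 of the 160 streak cells that lacked NODAL. These 74 cells are 42.3% of all streak cells, and in cSR such cells were 26.7% (8 cells). Neither ligand, antagonist nor convertase was detected in 55 streak cells (31.4%, 24.6 to 38.9), against 19 of 30 cSR cells (63.3%, 43.9 to 80.1). By series it was 3 of 27 cells in cPS (2.35 to 29.2), 11 of 37 in cPS1 (15.9 to 46.98), 19 of 59 in cPS2 (20.6 to 45.6) and 22 of 52 in cPS3 (28.7 to 56.8). Each series lay below cSR, but the intervals of cPS1, cPS2 and cPS3 overlap that of cSR and the narrower streak interval pools 4 series.

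**Figure D3:**
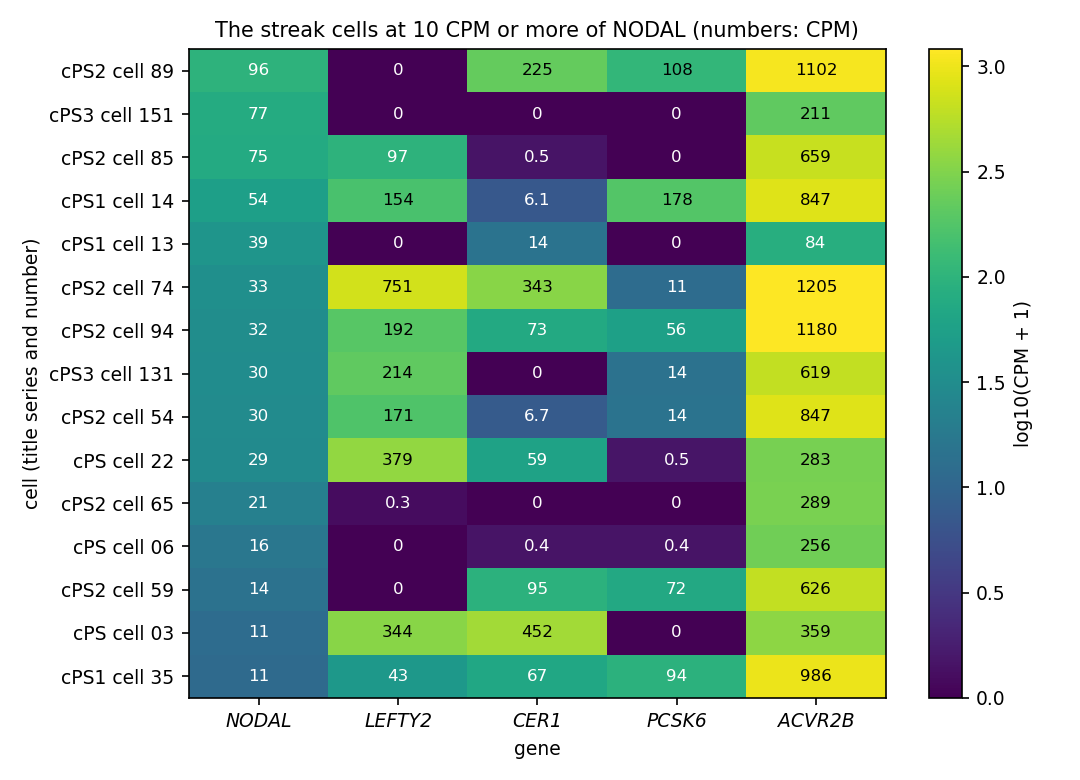
The 15 streak cells at 10 CPM or more of NODAL, ordered from high to low NODAL, with the CPM of the 5 genes printed and coloured on a log10(CPM + 1) scale. LEFTY2 is at 43 CPM or more in 9 cells and under 1 CPM in 6, while ACVR2B ranges from 83.7 to 1205 CPM.

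Of the 86 streak cells with an antagonist 19 held both LEFTY2 and CER1, and 0 of the 8 such cSR cells did. CER1 was detected in 19 of 46 cells with LEFTY2 (41.3%, 27.0 to 56.8) and in 31.01% of the cells without it (23.2 to 39.7), a difference within the intervals. It was widest in cPS3, with 8 of 13 against 8 of 39 cells, stood at 4 of 13 against 13 of 46 in cPS2, and was turned round in cPS, with 3 of 7 against 10 of 20, and in cPS1, with 4 of 13 against 9 of 24. The 4 cells with the highest CER1, between 851 and 1483 CPM, had neither LEFTY2 nor NODAL reads. All 4 of them held PCSK6, at 254, 75.3, 84.2 and 16.99 CPM. The next 4 by CER1 did not share this pattern. In cPS3_124, cPS2_86, cPS_03 and cPS2_109, LEFTY2 stood at 18.1, 6.57, 344 and 2.79 CPM. NODAL stood there at 0.402, 0, 11.4 and 0 CPM, and PCSK6 at 26.5, 0.571, 0 and 0 CPM. PCSK6 was detected in 50.8% of cells with CER1 and 39.7% without it, and in 52.2% of cells with LEFTY2 and 40.3% without it. PCSK6 beside LEFTY2 went opposite ways between series, with 11 of 13 against 8 of 24 cells in cPS1 and 4 of 13 against 20 of 46 in cPS2. Mean within-series r between the 5 genes, apart from NODAL with LEFTY2, lay between -0.14 and 0.15.

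Median total counts of the cells compared were close for LEFTY2, CER1 and PCSK6 and somewhat higher with NODAL. Cells with and without a gene had median totals of 2713702 and 2450267 counts for NODAL, 2442274 and 2475106 for LEFTY2, 2506753 and 2435071 for CER1, and 2497327 and 2410558 for PCSK6. The lowest total was 1791001 counts among cells with NODAL and 408481 among those without it. Cells with LEFTY2 detected a median of 4926 genes, against 4716 without it. For NODAL these medians were 4690 and 4752, for CER1 4738 and 4752, and for PCSK6 4740 and 4755. The part of depth and gene number in the shares was not tested.

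Each of the 4 genes was then set beside markers of streak, node, endoderm, epiblast, ectoderm, lateral mesoderm, blood and germ cells, to see in which streak cells it was found. Cells with NODAL had NANOG, a homeobox factor of pluripotent epiblast, in 14 of 15 cases, against 78 of 160 cells without NODAL. The other 4 genes of that epiblast and neural list showed no such gap or one the other way: SOX3 was in 26.7% against 26.3% of cells, CDH1 in 1 of 15 against 8 of 160, SOX2 in 0 of 15 against 4 of 160, and OTX2, a homeobox factor of the anterior epiblast and hypoblast, in 0 of 15 against 37 of 160. WNT8A, a Wnt ligand of the streak, was in 12 of 15 against 94 of 160 cells, but in 2 of 3 against 25 of 34 in cPS1 and 0 of 2 against 29 of 50 in cPS3. Of 6 streak markers 5 had a higher share with NODAL, by a list median of 4.69 points. EOMES had a lower share (60% against 64.4%), and SNAI2 was close (86.7% against 86.3%). The summed level of the streak markers had a median of 2914 CPM (772 to 6696) with NODAL and 2917 CPM (37.6 to 10698) without it. APOA1, an apolipoprotein of endoderm and hypoblast, was in 0 of 15 against 45 of 160 cells. Of the 6 detected genes of its list 4 had a lower share with NODAL and 2 a higher one, RBP4 with 4 of 15 against 27 of 160 and GATA6 with 11 of 15 against 99 of 160, and the median difference was -4.69 points. For 15 cells a count of 0 allows a share of up to 20% by the limit of 3 cells, and its binomial interval reaches 21.8%. Of 6 node markers 5 had a lower share with NODAL and LHX1 an equal one, with a median difference of -2.81 points and overlapping binomial intervals for each, and their summed level had a median of 12.6 CPM (0 to 88.9) against 13.4 CPM (0 to 779). Of 3 non-neural ectoderm markers 2 had a higher share with NODAL, and TFAP2A had a lower one. GRHL3 was in 4 of 15 against 15 of 160 cells and DLX5 in 4 of 15 against 24 of 160. The 3 together had a median of 13.6 CPM (0 to 130) with NODAL and 3.61 CPM (0 to 271) without it. All 5 detected lateral mesoderm and vascular markers had a lower share. The summed median of that list was 4.40 CPM (0 to 254) against 27.3 CPM (0 to 2793). For each of these markers the intervals overlap. Over all 10270 genes 46.5% had a higher and 48.2% a lower share in the cells with NODAL, with a median difference of 0. The gene whose level was most like that of NODAL was ASTL, an astacin-family metalloprotease, with a mean r of 0.47 (0.33 to 0.59 over the 4 series). ASTL was detected in all 15 NODAL cells and in 78.8% of the others. TMEM51 and the metallothionein MT3 followed, with means of 0.31 and 0.30.

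Streak markers had higher shares in the cells with LEFTY2. MSGN1, a factor of presomitic mesoderm, was detected in 27 of 46 cells with LEFTY2 (58.7%) and in 23.3% of those without it. In cPS it was in 6 of 7 against 6 of 20 cells, in cPS1 in 12 of 13 against 6 of 24, in cPS2 in 5 of 13 against 8 of 46, and in cPS3 in 4 of 13 against 10 of 39. In cSR, both cells with LEFTY2 had MSGN1, against 9 of 28 without. WNT8A was in 80.4% against 53.5% of cells and SNAI2, a regulator of epithelial-mesenchymal transition, in 97.8% against 82.2%. All 6 streak markers had a higher share beside LEFTY2, by a median of 16 points, but T only at 100% against 98.4% of cells and EOMES at 69.6% against 62.02%, with overlapping intervals. Over all genes 58% had a higher and 37.2% a lower share beside LEFTY2, with a median difference of 1.16 points. The summed level of the streak markers had a median of 4409 CPM (309.7 to 10698) with LEFTY2 and 2514 CPM (37.6 to 10076) without it. By likeness of level MSGN1 led with a mean r of 0.43, followed by the growth factor gene FGF19 at 0.42, which was detected in 73.9% against 32.6% of cells, and by TMEM63A at 0.38. Of all 10270 genes, 0.37% were detected at least 25 points more often with LEFTY2, MSGN1 and FGF19 among them, and 0.0487% at least 25 points less often.

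Cells with CER1 held GATA6, a zinc-finger factor of endoderm and mesoderm, in 53 of 59 cases (89.8%), against 49.1% of cells without CER1. The direction held in every series, with 12 of 13 against 3 of 14 cells in cPS, 11 of 13 against 17 of 24 in cPS1, 14 of 17 against 24 of 42 in cPS2 and 16 of 16 against 13 of 36 in cPS3. In cSR it was 6 of 6 against 17 of 24. HHEX, a homeobox factor of anterior endoderm, was in 32.2% against 12.9% of cells, but in 2 of 17 against 6 of 42 in cPS2. KDR, the VEGF receptor of vascular precursors, was in 47.5% against 27.6% of cells. On its lateral mesoderm and vascular list ALDH1A2 also had a higher share, while FOXF1 (11.9% against 18.97%), LMO2 (5.08% against 9.48%) and TAL1 (0% against 0.862%) had a lower one. SOX3, an epiblast and neural factor, was in 13.6% against 32.8%, and NANOG and CDH1 on its list also had a lower share. OTX2 (23.7% against 19.8%) and SOX2 (3.39% against 1.72%), on the same list, had a higher one. Of 8 endoderm and hypoblast markers 4 had a higher and 2 a lower share with CER1, by a median of 11.3 points, where 44.6% of all genes had a higher and 50.7% a lower share, while SOX17 and TTR, also on that list, reached 10 CPM in no streak cell. The summed level of the list had a median of 237.5 CPM (9.096 to 9077) with CER1 and 116.03 CPM (0 to 9062) without it. Mean r was 0.53 for GATA6, 0.51 for SERTM1 and 0.49 for ELMO1, a regulator of cell migration. Genes at least 25 points more frequent with CER1 were 0.185% of all, GATA6 and SERTM1 among them, and 0.127% were at least 25 points less frequent.

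Node and anterior streak genes had higher shares in the cells with PCSK6. CHRD, whose product chordin blocks BMPs in the node, was in 29 of 76 cells with PCSK6 (38.2%) and 15 of 99 without it (15.2%), though in 3 of 24 against 7 of 35 in cPS2. LHX1 was in 23 of 76 against 12 of 99 cells, GSC in 12 of 76 against 3 of 99, and FOXA2 in 15 of 76 against 7 of 99. In cPS2, LHX1 was in 4 of 24 against 4 of 35 cells. All 6 node and anterior streak markers had a higher share with PCSK6, by a median of 12.7 points, but GNOT1 only at 14 of 76 against 15 of 99 cells. Over all genes 48.3% had a higher and 47% a lower share with PCSK6, with a median difference of 0. The summed level of the node markers had a median of 25.4 CPM (0 to 779) with PCSK6 and 6.10 CPM (0 to 524) without it. SHH, also on that list, reached 10 CPM in 2 streak cells, both with PCSK6. WNT8A, a streak marker, went the other way, in 39 of 76 against 67 of 99 cells. Of 6 streak markers 5 had a lower share with PCSK6, by a list median of -4.53 points. EOMES had a higher share, in 58 of 76 against 54 of 99 cells, and MSGN1 was close, in 24 of 76 against 33 of 99. The gap of EOMES was wide in cPS3 (18 of 19 against 14 of 33 cells). In cPS, cPS1 and cPS2 it was 9.34, 6.73 and 6.90 points. The summed level of the streak markers had a median of 3053 CPM (37.6 to 10698) with PCSK6 and 2891 CPM (58.9 to 10076) without it. TRABD2B, a metalloprotease that cuts Wnt ligands, was the gene most like PCSK6 in level, with a mean r of 0.44, and was detected in 53 of 76 against 40 of 99 cells. This gap was wide in cPS (12 of 14 against 3 of 13) and cPS3 (17 of 19 against 11 of 33). In cPS1 it was 12 of 19 against 9 of 18 cells, and in cPS2 the shares were close, with 12 of 24 against 17 of 35. EOMES and CHRD followed, at 0.37 and 0.36. Of all genes, 0.0389% were at least 25 points more frequent with PCSK6, TRABD2B among them, and 0.0195% at least 25 points less frequent. Here and for LEFTY2 and CER1, a gene found in few cells or in nearly all cannot differ by 25 points. Part of these percentages is therefore fixed by the cut and the group sizes.

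ACVR2B was detected in nearly every cell, so only its level could be set beside others. The genes most like it were MYH10, a non-muscle myosin, with a mean r of 0.40, PODXL, a sialomucin of epithelial surfaces, at 0.39, and SERPINH1, a collagen chaperone, at 0.36. All r values here are descriptions over streak cells that share libraries and depth, and the highest of 10271 ranked genes were picked.

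**Figure D4:**
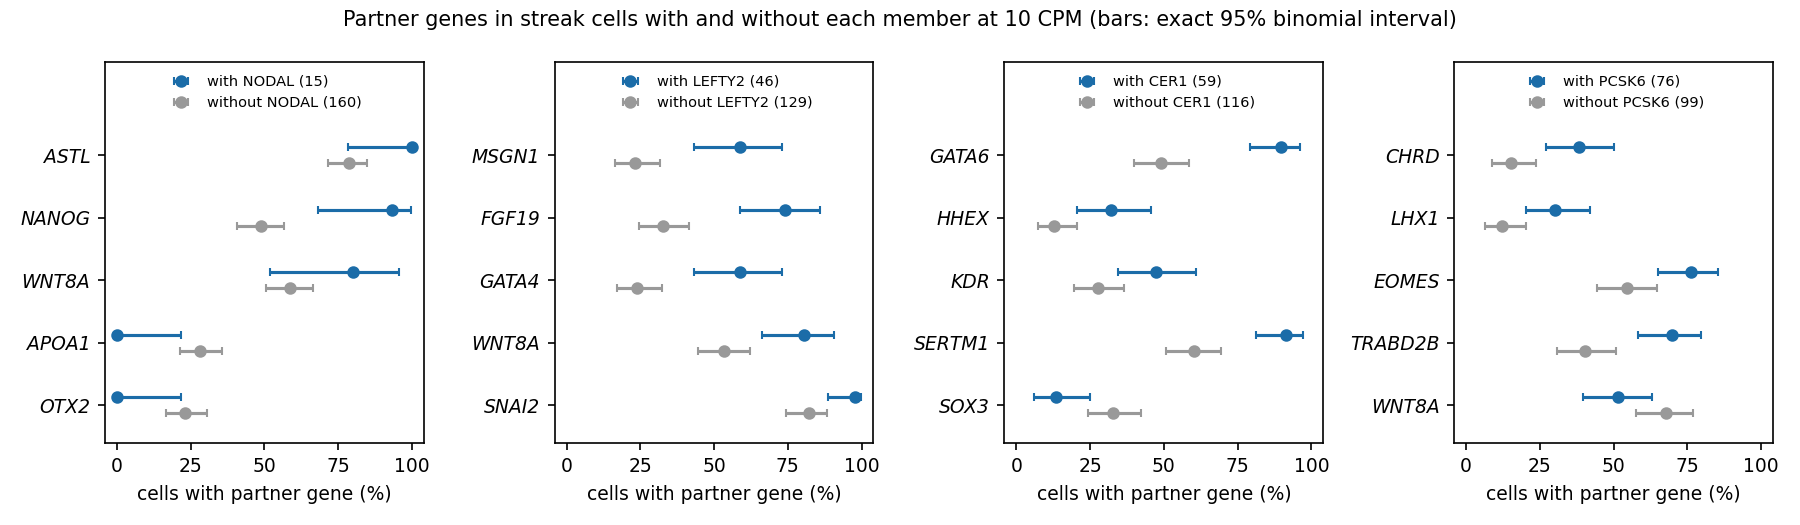
Share of streak cells at 10 CPM or more of partner genes, in percent, among cells with (blue, upper) and without (grey, lower) NODAL, LEFTY2, CER1 or PCSK6; bars are exact 95% binomial intervals and cell numbers stand in brackets. The widest gaps are those of NANOG beside NODAL (14 of 15 against 78 of 160), FGF19 beside LEFTY2 (73.9% against 32.6%) and GATA6 beside CER1 (89.8% against 49.1%).

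The pathway as a whole was read from lists of 61 genes, which include the 5 members. Of these genes 53 are in both tables and 40 had 5 CPM or more in cPS or cSR. Of these 40, 9 were at least 2-fold higher in cPS and 3 at least 2-fold lower, beside 11.7% and 14% of all genes compared. The members LEFTY2, CER1 and PCSK6 are among the 9. Members and lists were chosen with earlier results of these data known, so the count of 9 is no independent support. The median log2 ratio was -0.06, and -0.04 over all genes. Among the ligands NODAL was under 5 CPM, and GDF3, a related ligand that acts with Nodal, had 67.3 CPM in cPS cells and 36.2 CPM in cSR cells (0.87). For cPS1, cPS2 and cPS3 the log2 ratio of GDF3 to cSR was 0.23, 0.22 and 0.27. TGFB3 stood at 11.4 against 30.3 CPM (-1.33), but at 46.6 CPM in cPS2 (0.60 to cSR), and TGFB2 at 66.02 against 101.3 CPM (-0.61). Of the 2 convertases measured, PCSK6 was past 2-fold and PCSK5 was not, at 405 against 525 CPM (-0.37). FURIN, singled out after its values were seen, had 1.66 CPM in cPS cells, where 1 cell gave 98.3% of the counts, 3.67 CPM in cSR cells, where 1 cell gave 52.5%, and a pooled level of at most 0.441 CPM in the other streak series.

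Of 6 antagonists, CER1 and LEFTY2 were past 2-fold higher and none was 2-fold lower, with FSTL1, a follistatin-like protein, at 29.5 against 42.9 CPM (-0.53). Among 6 receptors and coreceptors 1 was past 2-fold, TGFBR3, the betaglycan coreceptor, which had 0.209 CPM in cPS cells and 5.77 CPM in cSR cells (-2.48). In cPS3 it stood at 8.38 CPM (0.47 to cSR), and 54.5% of its counts in cSR came from 1 cell. ACVR2A, the other type II receptor, stood at 123.7 CPM in cPS cells, against 91.3 CPM in cSR cells (0.43), and at 41.7 CPM in cPS1 (-1.11 to cSR). CFC1B, an EGF-CFC coreceptor, was at 313 against 364 CPM (-0.22). ACVR1B, the type I receptor of textbook accounts, was low in all series, with 0.6001 CPM in cPS cells and 1.73 CPM in cSR cells, and is named after its values were seen.

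The transducers split: SMAD3 stood at 5.52 against 1.48 CPM (1.39), and SMAD2 at 59.4 against 151.01 CPM (-1.33). For cPS1 and cPS2 the log2 ratio of SMAD2 to cSR was 0.06 and 0.16, so its value in cPS was not shared by those series. ZFYVE9, the anchor protein also called SARA, was at 17.4 against 26.4 CPM (-0.57). Of 8 intracellular inhibitors 1 was past 2-fold, the ubiquitin ligase NEDD4L at 211 against 95.2 CPM (1.14), while SMURF2, another ubiquitin ligase, and SMAD7 stood at -0.86 and -0.79. In cPS1, cPS2 and cPS3 the log2 ratio to cSR was 0.88, 1.09 and 0.44 for NEDD4L. It was 0.08, -0.31 and 0.06 for SMURF2, and -0.48, -0.18 and -0.60 for SMAD7. Of the 10 target genes measured 4 were at least 2-fold higher and 0 lower, with a median of 0.63, beside 11.7% higher and 14% lower over all genes and their median of -0.04. These were CHRD (54.6 against 0.229 CPM, 5.50), FOXA2 (8.51 against 0.0714 CPM, 3.15), EOMES (186 against 46.2 CPM, 1.98) and HHEX (30.5 against 11.3 CPM, 1.35). HHEX stood at -1.40 in cPS2, and 57.9% of its counts in cPS came from 1 cell. The target list overlaps the node markers, which move with it: 3 of the 6 node markers were detected in cSR, CHRD, FOXA2 and SHH in no cSR cell, and the summed level had a median of 15.4 CPM among cPS cells (0.438 to 533) and 3.11 CPM among cSR cells (0 to 71.7). Their part in the result was not tested.

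**Figure D5:**
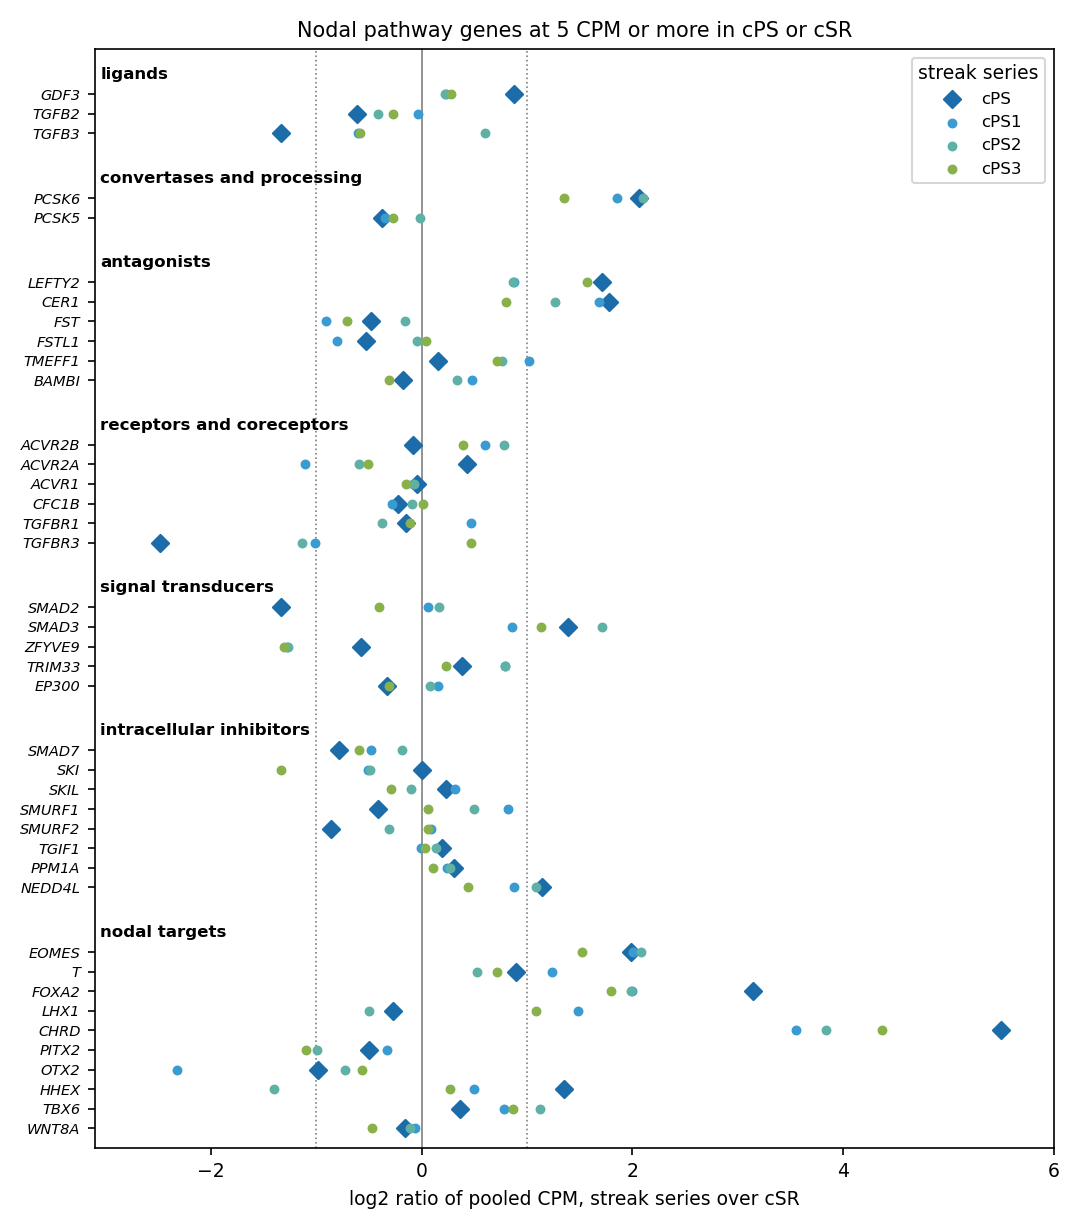
Log2 ratio of pooled CPM, with 1 CPM added, of each streak series to cSR for the 40 pathway genes at 5 CPM or more in cPS or cSR; diamonds are cPS, circles cPS1 to cPS3, and dotted lines mark 2-fold. PCSK6, EOMES, FOXA2 and CHRD lie past 2-fold in all 4 series, and ACVR2B lies between -0.09 and 0.78, its cPS value at 0.05 with TMM factors. Only cPS shares library blocks with cSR.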

How the data were processed

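Single cells of the dissected streak and of the surrounding area pellucida had been sequenced, 1 library a cell. Per the submitters' processing notes, the authors used RSEM 1.2.3, CASAVA 1.8.2 and Bowtie, version 0.12.9 except for 1 cell with 0.12.8, on the build galGal4, and deposited expected counts for each gene. Settings and annotation are not given in the labels or headers. Of the values above 0, 64.4% were whole numbers, and cells differed in their totals, as unscaled counts do. Without molecular identifiers, PCR copies are included. The part of the streak table used here breaks off within its final row, and that row was left out; the 640 genes complete only in the surrounding-region table (3.42% of its counts) were not analysed here. No cell was removed and no doublet caller was run. No 2 cells were identical (highest r of log2 CPM 0.857).

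Expected counts were summed over the cells of a series and rounded for exact Poisson intervals at 95%; shares have exact Clopper-Pearson intervals. Log2 ratios add 1 CPM, which understates ratios of low genes, and 2-fold or more was called by size, with no test. Library blocks are runs of library identifiers in the labels: cPS and cSR share blocks 1 and 2. Likeness is the mean over the 4 streak series of Pearson's r of log2(CPM + 1) among genes found in at least 5% of streak cells. Genes were named by rule: the 5 members, up to 3 of each pathway list with the largest absolute ratio, the markers with the largest differences of shares, and the 3 most alike genes with a name. T, TTR, SOX17, GSC, FOXA2 and SHH, the limit of 25 points and FGF19 as a partner were chosen after values were seen. Further genes of a marker list named beside those chosen by rule were also added after values were seen. The members and lists were chosen with earlier results of these data known.

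Alternatives covered detection limits of 5, 20 and 50 CPM, other pseudocounts, thinning to 1000000 counts, TMM factors of edgeR 4.0.16 and size factors of DESeq2 1.42.0 (R 4.3.3), single blocks and series, and leaving out the epiblast-labelled cells or the highest cells; scaling over all genes was added after the data were seen. The steps for the pooled ratio and for r were tested on simulated data. The simulated counts varied by counting error only, without the spread between cells seen here. The steps for shares, intervals and co-detection were not tested in this way. Python 3.11.15, numpy 2.4.6, pandas 2.3.3, scipy 1.17.1 and matplotlib 3.10.9 were used.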

Additional observations from a re-analysis of the deposited data

How the results depend on the processing

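Across 70 recomputed log2 ratios of cPS to cSR, no gene past 2-fold changed direction and 6 ratios of such genes were under it: NODAL, whose ratio is past 2-fold although it lay under 5 CPM and outside the count of genes, was 0.27 with a pseudocount of 10 CPM, LEFTY2 was 0.81 in block 2, 0.87 with cPS1 and 0.86 with cPS2, and CER1 was 0.21 in block 2 and 0.80 with cPS3. At a detection limit of 50 CPM the streak shares were 2.29% for NODAL, 17.7% for LEFTY2, 25.7% for CER1 and 27.4% for PCSK6. In cSR, LEFTY2 was in 0% of cells without the epiblast label, and ACVR2B in 100% at 5 CPM and after thinning. The share of LEFTY2 among NODAL cells stayed above that in the other cells under every alternative run. The other pairs did not. CER1 among NODAL cells was 25% at 50 CPM and 0% in cPS3, both below the other cells, and PCSK6 among NODAL cells was 42.1% at 5 CPM, 27.3% at 20 CPM and 0% in cPS, again below. CER1 among LEFTY2 cells was lower than in the rest in cPS (42.9%) and cPS1 (30.8%) and 61.5% in cPS3. PCSK6 among LEFTY2 cells was lower in cPS (28.6%) and cPS2 (30.8%), 84.6% in cPS1 and 32.3% at 50 CPM. PCSK6 among CER1 cells was lower in cPS (46.2%), 66.2% at 5 CPM and 31.1% at 50 CPM. The pathway lists held 5 genes 2-fold lower when genes of any level were counted and 1 with all streak cells, against 3. The r of NODAL with ASTL was 0.504 by Spearman, and that of CER1 with GATA6 0.497 over pooled cells and 0.492 by Spearman. The median of all genes was -0.0419, and 0.0942 with TMM factors. The causes were not tested. No paired analysis was possible because each series is 1 sample and the title numbers of cells pair nothing. With 15 NODAL cells and 30 cSR cells, the shares are known only within wide intervals.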
